A study of Oryctolagus cuniculus with 24 samples.

Results

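The suppressors of cytokine signalling, SOCS1 to SOCS7, and the related gene CISH were followed in rabbit peripheral blood mononuclear cells (PBMCs), the lymphocytes and monocytes of the blood. The array held 28869 genes as counted here, of which 9602 had a symbol and the rest an identifier only. Of the 8 genes looked for by symbol, 6 were measured: SOCS1, SOCS2, SOCS3, SOCS4, SOCS5 and SOCS7. SOCS6 and CISH were not found by name and are not analysed here. PBMCs of 4 adult females of the New Zealand White breed, here called rabbits 1, 2, 4 and 5 after their labels, were mock-stimulated with buffer or stimulated with LPS at 1 µg/mL or with PMA at 10 ng/mL plus ionomycin at 1 µg/mL (PMA-Ionomycin), and harvested after 4 h (T4) or 24 h (T24). LPS, or lipopolysaccharide, is a bacterial wall component that is sensed by Toll-like receptors. PMA, a phorbol ester, switches on protein kinase C, and ionomycin lets calcium into the cell. Each of the 6 groups held 1 culture of every rabbit, with no genetic change and no sorting of cells, and each culture was read on a one-colour array of its own, 24 in all.

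SOCS proteins are negative feedback regulators. A cytokine that binds its receptor activates JAK kinases, which phosphorylate STAT transcription factors, and STATs in turn induce SOCS genes, whose products bind the receptor or the kinase through an SH2 domain and recruit a ubiquitin ligase through the SOCS box. SOCS1 and SOCS3 can also block JAK kinases directly, SOCS2 is best known for restraining growth hormone signalling, and SOCS4 and SOCS5 have been linked to the epidermal growth factor receptor.

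The 6 genes were covered by 20 probes in 25 spots per array, all 60 bases long. These probes are printed because they decide what each signal can stand for. SOCS1 had 1 probe and SOCS3 had 1 sequence under 2 probe names, neither with a genome position in the files. Both were named through the identifiers that the published gene set of the array pairs with those symbols, SOCS2 through a RefSeq accession, and SOCS4, SOCS5 and SOCS7 through the gene number in the files, looked up in the RefSeq gene table.
SOCS1: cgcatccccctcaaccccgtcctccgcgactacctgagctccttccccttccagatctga
SOCS3: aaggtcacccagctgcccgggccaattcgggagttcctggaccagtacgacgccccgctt
SOCS4 probe 1: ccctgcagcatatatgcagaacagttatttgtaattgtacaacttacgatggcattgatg
SOCS4 probe 2: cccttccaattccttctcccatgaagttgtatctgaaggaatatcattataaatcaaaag
The SOCS4 probes adjoin each other on the plus strand at chr17:73717773-73717832 and chr17:73717833-73717892 of the oryCun2 genome build. SOCS2 was read by 5 probes that each start 1 base after the one before, on the plus strand of chr4:72875764-72875827. All 5 are shown, since their signals parted in 1 group, and the capitals mark the 56 bases that they share.
SOCS2 probe 1: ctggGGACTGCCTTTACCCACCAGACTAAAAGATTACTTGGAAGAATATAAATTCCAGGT
SOCS2 probe 2: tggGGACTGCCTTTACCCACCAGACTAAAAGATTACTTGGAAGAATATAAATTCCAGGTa
SOCS2 probe 3: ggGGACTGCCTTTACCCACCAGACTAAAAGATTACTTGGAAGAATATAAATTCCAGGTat
SOCS2 probe 4: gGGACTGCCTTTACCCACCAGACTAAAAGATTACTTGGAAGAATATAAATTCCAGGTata
SOCS2 probe 5: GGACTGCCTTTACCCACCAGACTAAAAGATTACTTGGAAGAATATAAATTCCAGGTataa
The 5 SOCS5 probes were tiled in the same way on the minus strand of chr2:139495314-139495377, where capitals again mark the 56 bases shared by all of them.
SOCS5 probe 1: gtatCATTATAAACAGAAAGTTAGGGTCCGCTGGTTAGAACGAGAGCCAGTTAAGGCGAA
SOCS7 was read by 5 overlapping probes on the plus strand of chr19:39910703-39910768. Probes that overlap share their target and are not independent measurements of a gene.

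Levels are given as log2 of the median spot signal minus the median of the array, averaged over the probes of a gene. A probe has its own brightness, so levels were compared between groups and never between genes. Well above background were 51.4 to 62.3% of the non-control spots of an array. SOCS1, SOCS2, SOCS3 and SOCS5 were well above background on all 24 arrays and SOCS4 on 23, whereas SOCS7 was so on none: only 3 of its 120 probe readings passed. In bulk samples such as these, fewer cells of a type and less RNA per cell cannot be told apart. Monocyte markers, of which 8 of 12 looked for were measured and CD14, S100A8, ITGAM, CYBB and CD68 were well above background on every array, moved with the groups. Their mean level was 2.45 to 3.45 in mock, 1.89 to 2.51 in LPS and 1.69 to 2.07 in PMA-Ionomycin samples at T4, and 3.78 to 5.03, 3.69 to 4.80 and 1.25 to 1.998 at T24. After PMA-Ionomycin, 4 of the 8 fell at T4 and 7 at T24, and after LPS 2 fell at T4 and 1 at T24. These marker counts, and those that follow, stand against 22.8% and 33.6% of all genes called after PMA-Ionomycin and 1.03% and 1.22% after LPS. Of the B cell markers PMA-Ionomycin called 3 of 5 at each time (1 higher, 2 lower), and of the T cell markers 1 of 7 at T4 (higher) and 3 at T24 (1 higher, 2 lower). PRF1, the only NK cell marker measured of 5 looked for, was lower at T4 and higher at T24. Of the platelet markers 3 of 4 were lower at T4 and 1 was higher at T24, of the neutrophil markers 1 of 4 and 3 of 4 were lower, and of the erythrocyte markers 0 of 3 and 1 were called. LPS called 2 of 4 neutrophil markers at T24, both lower, and no other marker of these cells in the limma fit, where an unadjusted p below 0.05 was found for 2 T cell markers at each time, 1 erythrocyte marker at T4 and 1 further neutrophil marker at T24. The T cell marker CD4 and the platelet marker GP1BA were well above background on no array. The part of cell composition in the SOCS differences was not tested.

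**Figure D1:**
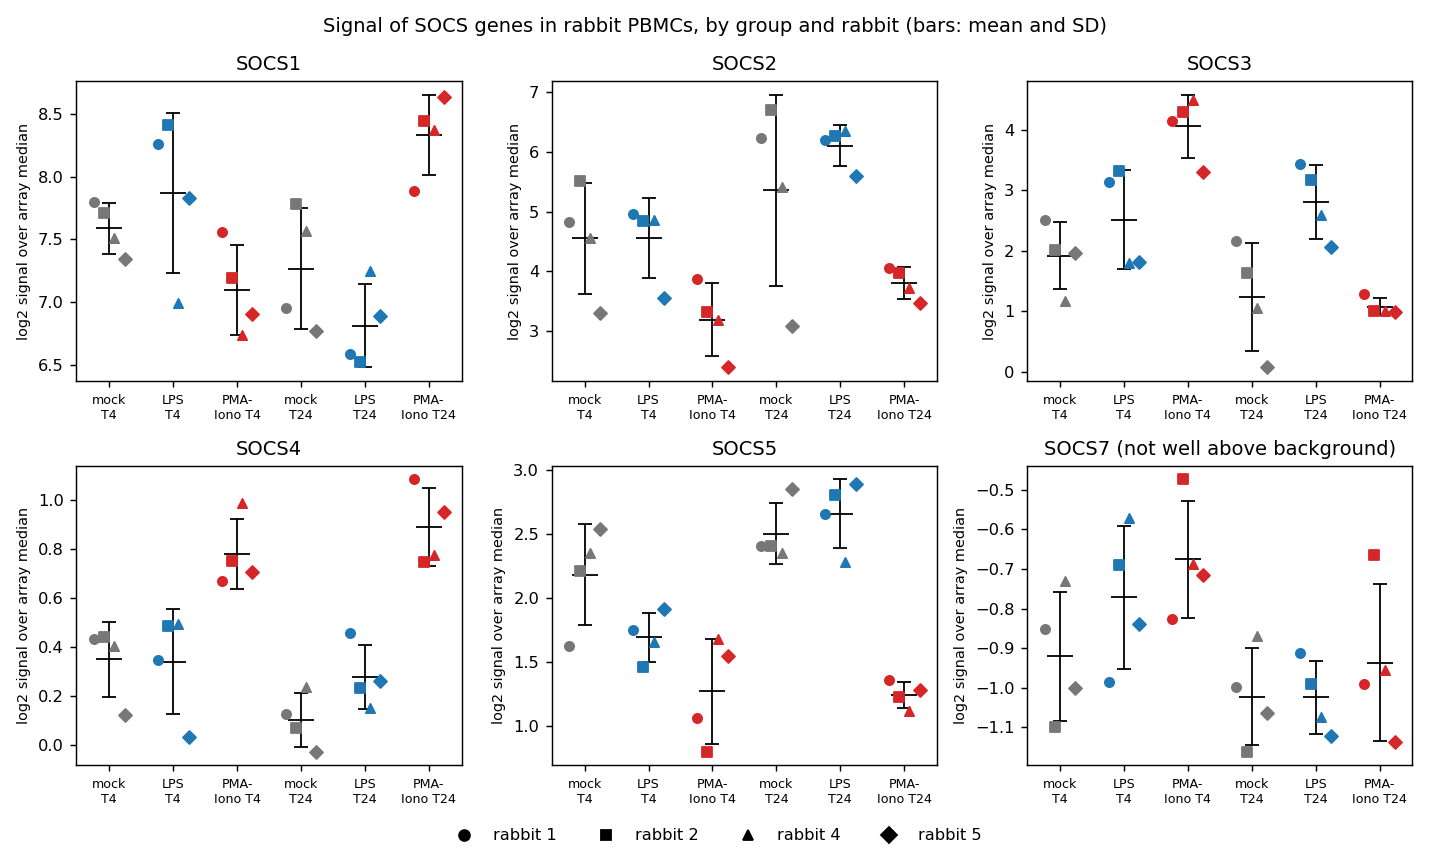
Level of each measured SOCS gene (log2 signal over the array median, y axis, a scale of its own for each gene) in the 6 groups (x axis), with a symbol per rabbit and the mean ± SD of 4 rabbits as bars. SOCS3 stands highest in PMA-Ionomycin samples at T4 (3.30 to 4.50) and SOCS1 in those at T24 (7.88 to 8.63).

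LPS and PMA-Ionomycin were each compared with mock at the same time, with limma across all genes and all 24 arrays, and a gene was called when its adjusted p was below 0.05. LPS called none of the 6 SOCS genes at T4, where 1.03% of all genes were called, and none at T24, where 1.22% were. At an unadjusted p below 0.05 there was 1 SOCS gene at each time, SOCS5 at T4 and SOCS3 at T24. PMA-Ionomycin called 3 of 6 at T4 (SOCS3 and SOCS4 higher, SOCS5 lower), against 22.8% of all genes, and 4 of 6 at T24 (SOCS1 and SOCS4 higher, SOCS2 and SOCS5 lower), against 33.6%. The SOCS genes thus moved in both directions, and after PMA-Ionomycin their median log2 difference was -0.12 for T4 and -0.04 for T24, where the median of all genes was 0.05 and 0.03. The comparisons with mock at one time share their control samples.

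**Figure D2:**
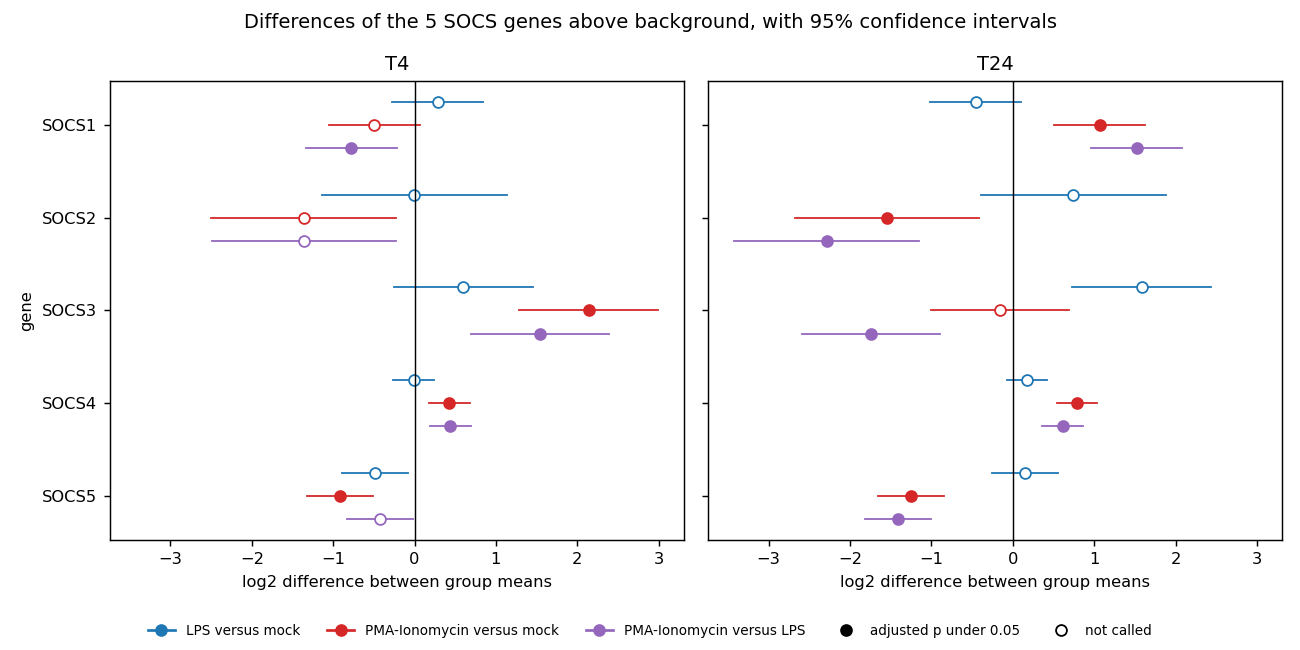
Difference between group means (log2, x axis) with its 95% confidence interval for the 5 SOCS genes above background (y axis) at T4 and T24, in 3 comparisons given by colour, with filled points for an adjusted p under 0.05. SOCS3 changes side between the times after PMA-Ionomycin relative to LPS, from 1.54 to -1.74.

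SOCS3, which binds the shared receptor subunit of the interleukin-6 family and blocks the attached JAK kinase, rose after PMA-Ionomycin at T4 and was not called at T24. At T4 its level in rabbits 1, 2, 4 and 5 was 2.51, 2.02, 1.17 and 1.96 in mock samples, 3.13, 3.32, 1.80 and 1.81 after LPS, and 4.14, 4.29, 4.50 and 3.30 after PMA-Ionomycin. Every PMA-Ionomycin sample lay above every mock sample, and the LPS samples overlapped with both of the others in part. The rise over mock was 2.14 (log2, SE 0.41), or 4.41-fold, with an adjusted p of 0.00034, and was found in 4 of 4 rabbits (1.34 to 3.33). It was called under each of the 15 alternatives, with a range of 1.75 to 2.41. Within the 3 slides, where 1 or 2 arrays of each group came from different rabbits, it was 1.46 to 2.43. Relative to LPS at T4, SOCS3 was higher by 1.54 (adjusted p = 0.0060), a call that was lost without rabbit 4 (1.16, adjusted p = 0.125, the highest of the alternatives, which began at 0.00017).

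At T24 the SOCS3 levels in rabbits 1, 2, 4 and 5 were 2.16, 1.63, 1.05 and 0.07 in mock samples, 3.43, 3.16, 2.59 and 2.06 after LPS, and 1.28, 1.01, 1.01 and 0.99 after PMA-Ionomycin. The samples after PMA-Ionomycin were close to each other and within the range of mock, and all of them lay below all LPS samples. PMA-Ionomycin differed from mock by -0.16 (95% confidence interval -1.01 to 0.69, adjusted p = 0.869), whereas relative to LPS it was lower by 3.34-fold (log2 -1.74, SE 0.41, adjusted p = 0.0014, 4 of 4 rabbits). LPS against mock gave 1.58 (SE 0.41), higher in 4 of 4 rabbits by 1.27 to 1.99, but the groups overlapped and its adjusted p of 0.059 (unadjusted 0.00085) missed the threshold. Within slides it was 0.45 to 2.87. Each of the 2 probe names, which carry the same sequence, was called when fitted on its own (1.61, adjusted p = 0.0490, and 1.55, adjusted p = 0.0499). These p-values were adjusted over all probes and that of the gene over all genes, so they are not on the same footing. With the rabbit as a block the adjusted p was 0.0021, and over the alternatives for the gene it ranged from 0.0021 to 0.336, below 0.05 in 3 of 15. Among the markers at T24, the mean level of the neutrophil markers was 0.60 to 0.96 after LPS and 1.34 to 1.97 in mock samples, with no overlap, while that of the monocyte markers overlapped. Their part in the SOCS3 difference was not tested.

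Whether the effect of PMA-Ionomycin differed between the times was tested as an interaction, and 2 of the 6 genes were called, SOCS1 and SOCS3, against 22.5% of all genes. For SOCS3 the effect at T24 was lower than at T4 by 2.30 (log2 -2.30, SE 0.58, adjusted p = 0.0048), in 4 of 4 rabbits but unevenly: -2.51, -2.90, -3.37 and -0.43 in rabbits 1, 2, 4 and 5. The mock sample of rabbit 5 at T24 had the lowest SOCS3 level of all arrays. The call was lost without rabbit 2 (-2.10, adjusted p = 0.056) and without rabbit 4 (-1.94, adjusted p = 0.066), the latter the highest of the alternatives, which began at 0.00013. Without rabbit 5 it was -2.93. The interaction of LPS and time called 0 of 6 SOCS genes, with 1 at an unadjusted p below 0.05 (SOCS5), against 1.95% of all genes. For SOCS3 it was 0.98 (95% confidence interval -0.22 to 2.19).

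**Figure D3:**
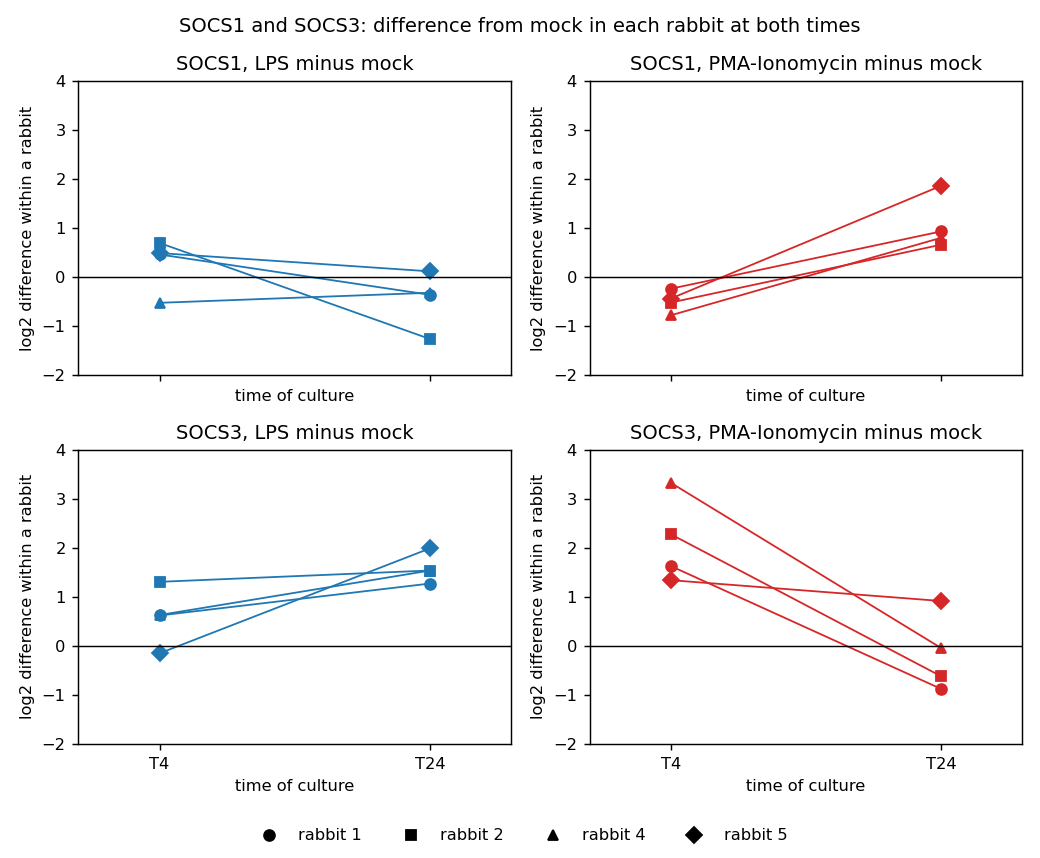
Difference of the stimulated from the mock culture of the same rabbit (log2, y axis) at T4 and T24 (x axis) for SOCS1 (top) and SOCS3 (bottom) after LPS (left) and PMA-Ionomycin (right), with 1 line per rabbit. After PMA-Ionomycin all 4 lines climb for SOCS1 (by 1.17 to 2.30) and all 4 drop for SOCS3.

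SOCS1, an inhibitor of JAK kinases best known for ending interferon gamma signalling, went the other way in time: it was called as higher after PMA-Ionomycin at T24 and not at T4. At T24 the levels in rabbits 1, 2, 4 and 5 were 6.95, 7.78, 7.56 and 6.77 in mock samples, 6.59, 6.52, 7.25 and 6.89 after LPS, and 7.88, 8.45, 8.37 and 8.63 after PMA-Ionomycin. All PMA-Ionomycin samples lay above all others of that time. The rise over mock was 2.09-fold (log2 1.07, SE 0.27, adjusted p = 0.0030) and that over LPS 2.87-fold (log2 1.52, adjusted p = 6.87e-05), each in 4 of 4 rabbits. Within slides the rise over mock was 0.72, 1.50 and 0.72. It was not called after quantile normalization, with the median signal (0.42, adjusted p = 0.208) or after normexp (0.43, adjusted p = 0.203), or without rabbit 5 (0.80, adjusted p = 0.073), with adjusted p-values of 0.0019 to 0.208 over the alternatives, while the difference from LPS was called in all of them, at 0.86 to 1.65 on the log2 scale, the lowest after quantile normalization.

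At T4 SOCS1 levels in rabbits 1, 2, 4 and 5 were 7.79, 7.71, 7.51 and 7.34 in mock samples, 8.26, 8.41, 6.99 and 7.83 after LPS, and 7.56, 7.19, 6.73 and 6.90 after PMA-Ionomycin. After LPS rabbit 4 was low and the other 3 were higher than their mock samples. PMA-Ionomycin was lower than mock in 4 of 4 rabbits, by -0.78 to -0.24 on the log2 scale, with an adjusted p of 0.243, and its groups overlapped. Quantile normalization called it (-0.76, adjusted p = 0.023, the lowest of the alternatives, which reached 0.416). Relative to LPS the difference was -0.77 (adjusted p = 0.036), a call that was lost without rabbit 1 (-0.80, adjusted p = 0.074), rabbit 2 (-0.63, adjusted p = 0.178) or rabbit 5 (-0.72, adjusted p = 0.127) and with only the arrays compared in the fit (adjusted p = 0.086), with a range of 0.0012 to 0.178 over the alternatives and of -1.44 to -0.09 in the difference within slides. The interaction of PMA-Ionomycin and time was 1.56 (SE 0.38, adjusted p = 0.0038) and was called in all 15 alternatives (1.18 to 1.69). SOCS1 rests on 1 probe sequence, spotted 3 times.

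SOCS2, a target of STAT5 known for its action on the growth hormone receptor, had the highest spread between rabbits, with a pooled SD within groups of 0.86 (log2), and fell after PMA-Ionomycin at T24. At T24 its levels in rabbits 1, 2, 4 and 5 were 6.23, 6.69, 5.40 and 3.09 in mock samples, 6.19, 6.26, 6.34 and 5.60 after LPS, and 4.06, 3.97, 3.72 and 3.48 after PMA-Ionomycin. The mock sample of rabbit 5 lay below every PMA-Ionomycin sample, while LPS and PMA-Ionomycin samples did not overlap. SOCS2 fell relative to mock by 1.55 on the log2 scale (SE 0.55, 2.92-fold, adjusted p = 0.032) in 3 of 4 rabbits. That call was lost without rabbit 1 (-1.34, adjusted p = 0.181), rabbit 2 (-1.15, adjusted p = 0.21) or rabbit 4 (-1.50, adjusted p = 0.157), and without rabbit 5 the value was -2.19 (adjusted p = 4.64e-06, the lowest of the alternatives, which reached 0.21). It was lost too with only the arrays compared in the fit (adjusted p = 0.088). Within slides it was -3.09 to -0.18. Relative to LPS it was 4.89-fold lower (log2 -2.29, adjusted p = 0.0016) in 4 of 4 rabbits, and called in all 15 alternatives.

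At T4 SOCS2 levels in rabbits 1, 2, 4 and 5 were 4.83, 5.52, 4.56 and 3.30 in mock samples, 4.96, 4.83, 4.86 and 3.55 after LPS, and 3.87, 3.31, 3.18 and 2.40 after PMA-Ionomycin. Rabbit 5 was the lowest of each group, and the groups overlapped although each rabbit had its lowest level after PMA-Ionomycin. Against mock the difference was -1.36 (SE 0.55, adjusted p = 0.082, 4 of 4 rabbits). With the rabbit as a block it was called (adjusted p = 0.0034), as it was without rabbit 5 (-1.51, adjusted p = 0.00047), and over the alternatives, 4 of 15 of which called it, the adjusted p ran from 0.00047 to 0.313. Against LPS it was -1.36 as well (adjusted p = 0.073), with an adjusted p of 0.0030 under the block, of 0.00070 without rabbit 5 and of up to 0.315 over the alternatives, 9 of 15 of which called it. Between T4 and T24 in mock samples, the SOCS2 difference was 0.80 (adjusted p = 0.436) with all rabbits and was called without rabbit 5 (1.14, adjusted p = 0.0082), the alternatives running from 0.0082 to 0.736.

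The 5 SOCS2 probes did not fall alike at T4. Probe 1 had 4.77 ± 1.00 (SD, n = 4) in mock and 3.87 ± 0.84 in PMA-Ionomycin samples, and probe 5, whose window lies 4 bases further on, had 3.97 ± 0.86 and 1.55 ± 0.21. The single-probe differences from mock ran from -2.42 to -0.83, and 2 of 5 probes, probe 4 (-1.64, adjusted p = 0.028) and probe 5 (-2.42, adjusted p = 0.00085), were called on their own. The signal of probe 1 exceeded that of probe 5 by 2.94, 2.85, 2.42 and 1.09 in rabbits 1, 2, 4 and 5 after PMA-Ionomycin at T4, and by 0.38 to 1.57 on the 20 other arrays. Except for rabbit 5, the PMA-Ionomycin samples of T4 therefore stood apart from every other array in this measure, which was chosen after its values were seen and was not tested. At T24 the 5 probes gave -1.68 to -1.23 against mock and -2.34 to -2.17 against LPS, with 4 and 5 of 5 called.

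**Figure D4:**
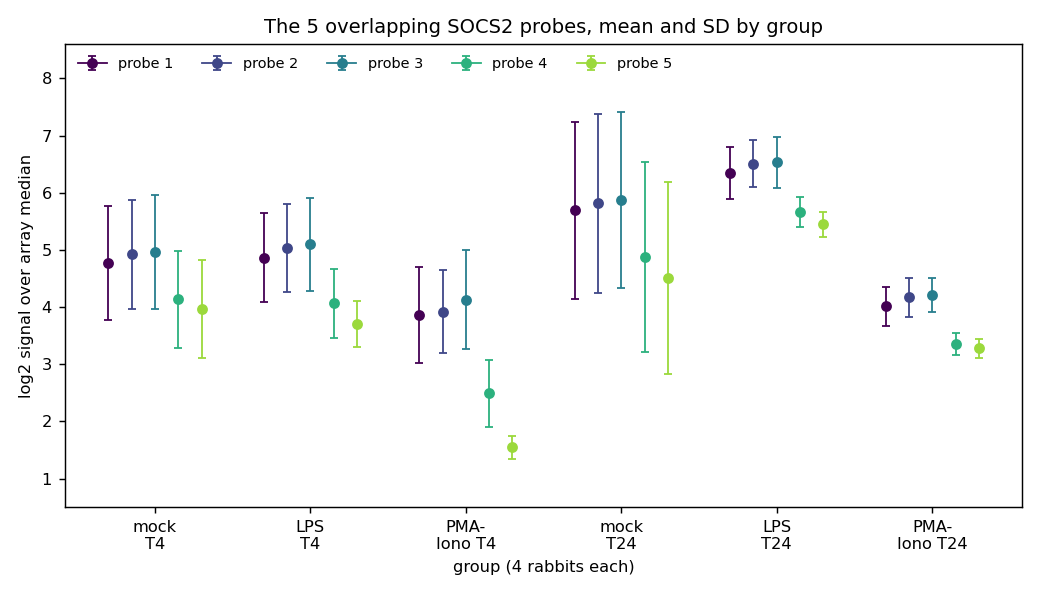
Level of the 5 overlapping SOCS2 probes (log2 signal over the array median, y axis) in the 6 groups (x axis), as mean ± SD of 4 rabbits, with probes numbered in the order of their start. Probes 4 and 5 are the dimmest in every group, and the distance widens in PMA-Ionomycin samples at T4, where probe 5 is at 1.55.

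SOCS5, which has been linked to interleukin-4 and epidermal growth factor receptor signalling, was lower after PMA-Ionomycin at both times. Its levels at T4 in rabbits 1, 2, 4 and 5 were 1.62, 2.21, 2.35 and 2.54 in mock samples, 1.75, 1.46, 1.65 and 1.92 after LPS, and 1.06, 0.80, 1.67 and 1.54 after PMA-Ionomycin. Rabbit 1 had the lowest mock level and 1 PMA-Ionomycin sample, that of rabbit 4, lay just above it. SOCS5 fell against mock by 0.91 on the log2 scale (SE 0.20, 1.88-fold, adjusted p = 0.0011, 4 of 4 rabbits), with -1.30 to -0.44 within slides. After LPS it was lower in 3 of 4 rabbits (-0.49, unadjusted p = 0.021, adjusted p = 0.241), called with array weights only (-0.61, adjusted p = 0.048, the alternatives reaching 0.744).

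At T24 the SOCS5 levels were 2.40, 2.40, 2.35 and 2.85 in mock samples, 2.66, 2.80, 2.28 and 2.89 after LPS, and 1.36, 1.23, 1.12 and 1.28 after PMA-Ionomycin in rabbits 1, 2, 4 and 5. PMA-Ionomycin samples were separate from all others of that time. The fall was 2.39-fold against mock (log2 -1.26, SE 0.20, adjusted p = 1.53e-05) and 2.66-fold against LPS (log2 -1.41, adjusted p = 2.70e-06), each in 4 of 4 rabbits. Within slides the difference from mock was -1.24 to -1.18, and both falls against mock, at T4 and T24, were called in all 15 alternatives. The 5 SOCS5 probes gave -1.01 to -0.82 at T4 and -1.29 to -1.18 at T24 against mock, each of them called. The interaction of PMA-Ionomycin and time was -0.34 (95% confidence interval -0.92 to 0.23, adjusted p = 0.491).

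SOCS4, the closest relative of SOCS5, rose after PMA-Ionomycin at both times by smaller steps. At T4 its levels in rabbits 1, 2, 4 and 5 were 0.43, 0.44, 0.40 and 0.12 in mock samples, 0.35, 0.49, 0.49 and 0.03 after LPS, and 0.67, 0.75, 0.99 and 0.71 after PMA-Ionomycin. The mock and LPS samples overlapped and every PMA-Ionomycin sample lay above them. The rise over mock was 1.35-fold (log2 0.43, SE 0.12, adjusted p = 0.010, 4 of 4 rabbits), and the call was lost without rabbit 4 (0.38, adjusted p = 0.085, the highest of the alternatives, which began at 0.0055) and with the processed signal (0.56, adjusted p = 0.051).

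At T24 the SOCS4 levels were 0.13, 0.07, 0.24 and -0.03 in mock samples, 0.46, 0.23, 0.15 and 0.26 after LPS, and 1.08, 0.75, 0.77 and 0.95 after PMA-Ionomycin in rabbits 1, 2, 4 and 5. Again every PMA-Ionomycin sample lay above all others of that time. The rise over mock was 1.73-fold (log2 0.79, SE 0.12, adjusted p = 1.22e-05), and that over LPS 1.53-fold (log2 0.61, adjusted p = 0.00022). Both were found in 4 of 4 rabbits and called in all 15 alternatives, and the former was 0.62 to 0.98 within slides. Its 2 probes lie side by side and gave 0.77 and 0.80 for the rise over mock at T24, although the second was brighter on average (0.92 against -0.01). At T4 against LPS the difference was 0.44 (adjusted p = 0.0077), lost without rabbit 5 (0.36, adjusted p = 0.053), with the processed signal and with only the arrays compared, and at most 0.081 over the alternatives, which began at 0.0057.

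SOCS7, a nuclear and cytoplasmic member that binds the adaptor NCK, had levels of -1.16 to -0.47 over all arrays and was not well above background in any group. No fold change is given for it, and none of the 9 comparisons called it.

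PMA-Ionomycin and LPS were set against each other to see where the stimuli parted. At T4, 3 of the 6 SOCS genes were called (SOCS3 and SOCS4 higher after PMA-Ionomycin, SOCS1 lower), against 26.7% of all genes. At T24, 5 of 6 were called (SOCS1 and SOCS4 higher, SOCS2, SOCS3 and SOCS5 lower), against 36.1%, and in all 5 the samples of both groups were separate, as they were in 36.2% of all genes. These 5 calls held in all 15 alternatives. Within slides the T24 differences were 1.25 to 1.74 for SOCS1, -2.74 to -1.96 for SOCS2, -2.15 to -1.59 for SOCS3, 0.50 to 0.71 for SOCS4 and -1.62 to -1.08 for SOCS5. The monocyte markers, with no overlap between these groups either, were at 3.69 or more after LPS and at most 1.998 after PMA-Ionomycin. Between mock samples of T24 and T4, which answer to the time in culture, 0 of 6 SOCS genes were called and none had an unadjusted p below 0.05, against 12.5% of all genes called. Their differences ran from -0.69 for SOCS3 to 0.80 for SOCS2. Over the same time 5 of 8 monocyte markers rose and the mean level of the platelet markers, between 1.47 and 2.36 in mock samples at T4, was between -0.27 and 0.12 at T24.

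Ranked by mean level, the groups seldom parted cleanly from their neighbours. For SOCS1 the order was PMA-Ionomycin T24, LPS T4, mock T4, mock T24, PMA-Ionomycin T4 and LPS T24 (8.33, 7.87, 7.59, 7.27, 7.10 and 6.81). For SOCS2 it was LPS T24, mock T24, mock T4, LPS T4, PMA-Ionomycin T24 and PMA-Ionomycin T4 (6.10, 5.35, 4.55, 4.55, 3.81 and 3.19). SOCS3 had the order PMA-Ionomycin T4, LPS T24, LPS T4, mock T4, mock T24 and PMA-Ionomycin T24 (4.06, 2.81, 2.52, 1.92, 1.23 and 1.07). Over all members, the only neighbours in such an order whose samples did not overlap were PMA-Ionomycin T4 and mock T4 for SOCS4 (0.78 and 0.35). SOCS5 ran from LPS T24 (2.66) to both PMA-Ionomycin groups (1.27 and 1.25).

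The ligands, receptors and kinases upstream of the SOCS genes were counted in lists. Of 30 measured cytokines that act through JAK-STAT receptors (41 looked for), LPS raised 2 at T4 and 4 at T24, and PMA-Ionomycin raised 12 and lowered 3 at T4, and raised 13 and lowered 2 at T24. The 15 called at each time after PMA-Ionomycin stand against the 22.8% and 33.6% of all genes, and the 2 and 4 after LPS against 1.03% and 1.22%. The median difference of these 30 after PMA-Ionomycin was 0.17 for T4 and 0.27 for T24. Interleukin-6 (IL6), a classical inducer of SOCS3, was 2.42 (log2, adjusted p = 0.016) higher after PMA-Ionomycin at T4 and 4.73 (adjusted p = 0.00060) higher after LPS at T24. At T4 after LPS it was higher by 2.55 with an adjusted p of 0.081. After PMA-Ionomycin at T24, where SOCS3 was not called, IL6 was higher by 2.16 (limma, adjusted p = 0.022). IL10, which signals through STAT3, rose by 5.13 after PMA-Ionomycin at T4, by 1.94 at T24 and by 4.12 after LPS at T24, with 3 of 4 mock arrays of each time above background. CSF2, IL13 and IL4 had the highest rises after PMA-Ionomycin at T4: CSF2 by 7.88, IL4 by 6.79, and IL13 by at least 137-fold, since no probe of IL13 was well above background in mock samples.

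At T24 CSF2 was still higher (log2 5.92, adjusted p = 1.38e-10), set against mock samples near background, where at least 1 of its probes was well above it on 2 of 4 arrays and most of them on 1. IL4 was 4.33 higher (adjusted p = 4.01e-09) and IL2, the T cell growth factor, at least 20.8-fold higher after PMA-Ionomycin than in mock samples, where none of its probes was well above background. IFNG, the ligand whose signal SOCS1 limits, had 2 probes that went opposite ways after PMA-Ionomycin, so its average over probes, though counted as raised at both times, is not given as a level change. The probe named by Ensembl gene was well above background on no mock array and was at least 7.97-fold higher at T4 and at least 13.0-fold higher at T24. The probe named by RefSeq accession was well above background on all of these arrays and had levels of 6.15 ± 0.39 (SD, n = 4) in mock and 5.36 ± 0.37 in PMA-Ionomycin samples at T4, and 6.58 ± 0.69 and 5.24 ± 0.19 at T24. The probes were not tested singly. The paper reports IFNG as higher after PMA-Ionomycin at both times, on its arrays and by quantitative PCR. Among the cytokines that fell after PMA-Ionomycin, IL23A had differences of -3.07 (T4) and -3.01 (T24), CSF3 had -1.32 (T4, well above background on 2 of 4 PMA-Ionomycin arrays) and IL15 had -1.39 (T24). IL23A rose instead after LPS, by 2.27 at T4 and 3.70 at T24.

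Among the receptor genes, of which 29 of 39 looked for were measured, PMA-Ionomycin lowered 8 and raised 1 at T4, and lowered 13 and raised 0 at T24, with median differences of -0.38 and -0.24. The 2 probes of OSMR, counted as lowered at T4, went opposite ways (-1.35 and 0.41). The calls are 9 and 13 of 29, where 22.8% and 33.6% of all genes were called. The interferon receptor subunits IFNGR2 and IFNAR2 had log2 differences of -1.40 and -1.36 at T4 and of -3.70 and -3.26 at T24. IL6ST, the shared receptor subunit to which SOCS3 binds, rose by 2.38 at T4 (adjusted p = 3.21e-07) and fell by 1.68 at T24 (adjusted p = 1.57e-05). LPS lowered 2 receptor genes at T4, IFNGR1 (-1.69) and IFNGR2 (-1.10), and raised 2 at T24, IL12RB2 (1.14) and IL23R (0.80), where 1.03% and 1.22% of all genes were called. The value of IL23R is set against mock samples near background, where at least 1 of its probes was well above it on 2 of 4 arrays and most of them on 0. Among 3 measured JAK kinases of 4, JAK1 was lower after PMA-Ionomycin at both times (-0.79 and -0.83), and LPS called 0 in the limma fit, with 0 at T4 and 1 at T24 at an unadjusted p below 0.05.

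Of 5 measured STAT genes of 7, PMA-Ionomycin raised STAT5A by 1.73 on the log2 scale and lowered STAT6 (-0.99) at T4, and genes raised at T24 included STAT4, by 3.42, and STAT5A, by 0.91. LPS called 0 STAT genes in the limma fit, with 1 at T4 and 0 at T24 at an unadjusted p below 0.05. Partners of the SOCS box, through which these proteins reach the ubiquitin ligase, were measured for 3 of 7 genes (ELOB, CUL5 and UBE2F), and 0 were called against mock in the limma fit. At an unadjusted p below 0.05 there were 2 after LPS at T4, 1 after LPS at T24, 1 after PMA-Ionomycin at T4 and 0 at T24. Against LPS, PMA-Ionomycin called 3 of these 3 at T4 and 2 at T24, where 26.7% and 36.1% of all genes were called. Of 10 measured other negative regulators of the pathway (15 looked for), PMA-Ionomycin raised 5 and lowered 2 at T4 and raised 1 and lowered 1 at T24, where 22.8% and 33.6% of all genes were called. The tyrosine phosphatase PTPN11 rose by 2.21 and 2.26 and the ubiquitin ligase CBLB by 1.78 at T4. USP18, an antagonist of type I interferon signalling, fell (-2.97 for T4), as did the phosphatase PTPRC (-1.13 and -1.39). LPS called 0 of these 10 in the limma fit, with 0 at T4 and 3 at T24 at an unadjusted p below 0.05.

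**Figure D5:**
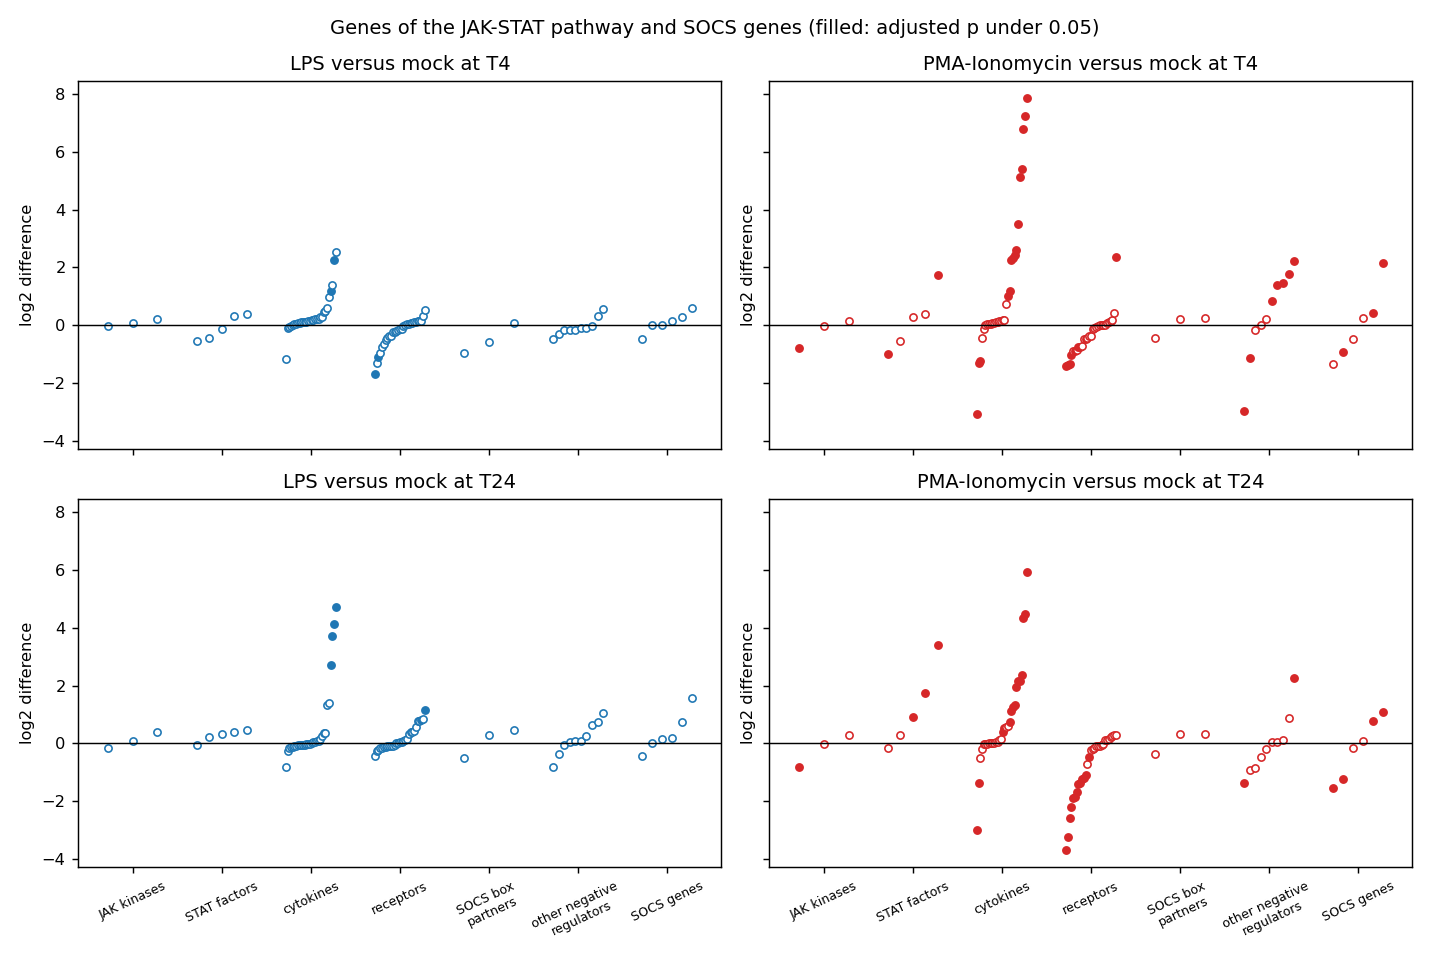
Difference from mock (log2, y axis) of each measured gene of 6 lists of the JAK-STAT pathway and of the SOCS genes (x axis, sorted within a list), after LPS (left) and PMA-Ionomycin (right) at T4 (top) and T24 (bottom), with filled points for an adjusted p under 0.05. Cytokines reach the highest values, 7.88 for CSF2 at T4, and receptors the lowest at T24, -3.70 for IFNGR2.

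Genes whose 6 group means followed a SOCS gene most closely were sought among 6335 genes, those of the 9602 with a symbol that all 4 arrays of 1 group or more measured well above background, the SOCS genes left out, by the root-mean-square difference of the means after each was centred. Closest to SOCS3 were PRRG4 (0.23 on the log2 scale), TRAF3IP2 (0.35) and DUSP1 (0.36), a phosphatase gene of the immediate early response. For SOCS1 they were CENPC (0.08), USP13 (0.09) and MZT2B (0.14), for SOCS2 HPS5 (0.15), CHRNA4 (0.19) and SLC5A2 (0.25), and for SOCS5 CCNDBP1 (0.09), TAPBPL (0.10) and ABCG1 (0.11). SOCS4 and SOCS7 spanned under 1 log2 unit and were not compared. These are descriptions over 6 groups that share arrays and rabbits.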

How the data were processed

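Each culture gave 1 Cy3-labelled RNA sample, read on a custom array of 60-base probes. The authors deposited the output of Agilent Feature Extraction 10.7.3.1, in which the median, mean, background and processed signals are intensities not scaled between arrays. They also deposited log2 values that equal the log2 median signal up to a constant per array. Coordinates are those of oryCun2 in the file headers.

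Following the methods, log2 median signals were centred on the array median. Spots marked as outliers (280 to 370 per array) were left out, a step the methods do not name, and spots were averaged per probe and probes per gene. Probes were named by RefSeq accession, gene number, file name or the published gene set. Group means of all 24 arrays were fitted with lmFit and eBayes of limma 3.58.1 in R 4.3.3 (with data.table, version 1.17.8, and statmod 1.5.0), with two-sided moderated tests adjusted by Benjamini-Hochberg over 28869 genes. Fits of single probes were adjusted over the 42089 probes instead. Figures used Python 3.11.15 and matplotlib 3.10.9. A gene was well above background where most of its probes were. A fold of at least N sets the bright group against, per array of the dim group, the gene's own signal or, if higher, the dimmest signal of any probe that passed the background test.

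All SOCS genes were named, with the called genes of the highest rise and fall of each pathway list, the ligands IL6, IL10, IFNG, IL2, IL4 and CSF2, and the 3 nearest genes of each member. Marker lists covered 7 cell types of blood. A called pathway gene is not reported here. The members and lists were chosen with earlier results of these data known. The rabbit numbers mark the same animals, and deviations from group means had a median correlation of 0.228 within rabbits (60 pairs) and -0.0741 between them (180 pairs). Since the methods use no pairing, a rabbit block was run as an alternative, besides other scalings, background corrections, filters, probes, slides, array weights and each rabbit left out. The 3 slides held 8 arrays each, with all 6 groups. Differences within a slide rest on 1 or 2 arrays per group, often of different rabbits, and so mix rabbit with stimulation. The number of arrays limits the precision.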

Additional observations from a re-analysis of the deposited data

Results flagged for a closer look

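The effect of PMA-Ionomycin differed between T4 and T24, by the interaction test of limma, for SOCS1 (1.56 on the log2 scale, adjusted p = 0.0038) and SOCS3 (-2.30, adjusted p = 0.0048). Of 36 groups of 4 arrays, 4 held a sample whose gap to its neighbour, divided by the range of the group, was above Dixon's 95% critical value, where chance gives about 1 in 20. SOCS2 in rabbit 5 after LPS at T4 was at 3.55 against 4.83 in the nearest rabbit (ratio 0.914). SOCS3 in rabbit 1 after PMA-Ionomycin at T24 was at 1.28 against 1.01 (ratio 0.932). SOCS4 in the mock sample of rabbit 5 at T4 was at 0.12 against 0.40 (ratio 0.878). SOCS5 in the mock sample of rabbit 5 at T24 was at 2.85 against 2.40 (ratio 0.886).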

How the results depend on the processing

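Over 15 alternatives for each of 9 comparisons, no SOCS gene reversed in a call. Of the values of single members under these alternatives, 753 stayed on the same side of the threshold, 29 became called and 19 lost the call. With array weights, 1 SOCS gene was called at T4 after LPS, 1 at T24 and 2 for the interaction of LPS and time, all from 0, where 3.58%, 3.24% and 7.55% of all genes were called. For LPS at T24, 1 was called when dim probes were left out and 1 with the rabbit as a replicate block (2.59% of all genes with either). Quantile normalization called 6 for PMA-Ionomycin against mock at T4 and 6 against LPS (25.6% and 30.7% of all genes), and normexp followed by quantile normalization 5 and 6 (25.4% and 30.3%), SOCS7 included though it was not well above background. The block otherwise added only SOCS2 for PMA-Ionomycin at T4 against mock and against LPS, and lost no call. Leaving out each rabbit gave 2 to 4 calls for PMA-Ionomycin against mock at T4, 3 in every case at T24 (4 with all rabbits) and 2 in every case against LPS at T4 (3 with all rabbits). It gave 0 to 1 calls for time in mock culture (1 without rabbit 5) and 1 to 2 for the interaction of PMA-Ionomycin and time (1 without rabbit 2 or rabbit 4). The causes were not tested. The slide as a block changed no call. With the processed signal the median difference of all genes for PMA-Ionomycin against LPS at T4 was -0.41, against -0.04 in the reported fit.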
